A study of Mus musculus with 3 samples.

Results

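The transcripts described here are 10 genes that mark dendritic cells and Langerhans cells in mouse skin: Cd207, Epcam, Mgl2, Clec10a, Cd209a, Cd209d, Clec9a, Flt3, Zbtb46 and Cd83. They were chosen by name, with earlier results of these data known, so their counts beside all named genes are no independent support. All 10 were found in the platform's annotation among 19938 genes with a probe set of their own, each by 1 probe set. RNA came from healing wounds on the backs of C57Bl/6 mice (an inbred strain) aged 6 weeks, in which 1.5 cm2 of skin had been cut away through epidermis and dermis. The 3 groups, day 10, day 12 and day 14 after wounding, shared strain, age and injury and had no further treatment in the labels. For each day, wounds of 3 mice were pooled and hybridised to 1 one-colour array. Per the labels, uninjured skin and the follicles at the edge were avoided in the dissection. Unwounded skin was not analysed here. Each value is a log2 expression level as deposited, so a difference of 1 is 2-fold. With 1 array a day there is no test and no error on any difference.

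Dendritic cells take up antigen in tissue, carry it to lymph nodes and present it to T cells on MHC class II molecules. Langerhans cells are the antigen-presenting cells of the epidermis and carry the lectin langerin, while the dermis holds conventional dendritic cells of a cross-presenting type and of a type that carries C-type lectins such as CD301b. Most dendritic cells depend on the growth factor receptor Flt3, whereas Langerhans cells are maintained through the Csf1 receptor and its ligand Il34.

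Every one of the 10 genes was higher on day 14 than on day 10. Their median difference was 0.55, in a range from 0.05 to 1.56. Of all named genes, 34.9% were higher in that comparison, 35.6% were lower and 29.5% were equal, and their median difference was 0.00. The Langerhans cell genes Cd207 and Epcam and 3 of the lectin genes, Mgl2, Cd209d and Clec10a, were at least 1.5-fold higher on day 14, against 3.11% of all named genes. Cd209a and Clec9a differed by 0.46 and 0.33, and the lineage genes Flt3 and Zbtb46 and the maturation gene Cd83 by 0.05, 0.19 and 0.14. In bulk tissue, a higher value from more cells of a type and one from more RNA per cell cannot be told apart.

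Facts of the arrays bear on how these values are read. The arrays correlated across probe sets at 0.991 to 0.996 (Pearson's r; probe sets are not replicates). In 777 genes measured by a pair of probe sets, the gap between both probe sets' differences stayed under 0.37 on day 12 against day 10, under 0.29 on day 14 against day 12 and under 0.48 on day 14 against day 10 for 95% of the genes. This gap describes technical spread within arrays and not the spread between mice. Other scalings of the arrays moved the median gene by at most 0.03, and differences smaller than that have no settled sign. Markers of the labelled tissue were present, with the basal keratin gene Krt14 at 13.3 on each array and the collagen gene Col1a1 at 13.5. The Y-linked gene Eif2s3y was at 5.49, 9.59 and 8.38 on days 10, 12 and 14, so that the day 10 value fell under the lower quartile of its array (5.91). The labels give no sex. This Y-linked signal moved with day, and its part in the results was not tested.

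Upstream sequence was looked up because several of the genes moved together. RefSeq's promoter table (GRCm38.p6) held 8 of the 10 genes. Windows of 250 bases before the annotated start are shown for Cd207, the defining Langerhans cell gene, and for the lectin genes Mgl2 and Cd209d, which were at least 2-fold higher on day 14. These were picked because they hold GAGGAA. Epcam, also at least 2-fold higher, has a window with 0 matches to any of the motifs, as have Cd209a, Flt3 and Clec9a. Capitals mark matches to motifs searched on both strands: GAGGAA, a core of sites for the myeloid factor PU.1, GGAA and GAAA with 2 bases between them, a composite Ets and IRF site, GAAA repeated with 2 bases between, an interferon response element, and TGANTCA, an AP-1 site.
Cd207, chr6:83677858-83678107, minus strand: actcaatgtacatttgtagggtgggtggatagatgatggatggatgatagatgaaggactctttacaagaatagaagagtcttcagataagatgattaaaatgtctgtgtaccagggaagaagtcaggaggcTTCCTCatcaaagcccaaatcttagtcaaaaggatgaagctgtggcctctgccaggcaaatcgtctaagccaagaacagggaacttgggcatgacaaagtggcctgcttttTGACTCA
Mgl2, chr11:70130107-70130356, plus strand: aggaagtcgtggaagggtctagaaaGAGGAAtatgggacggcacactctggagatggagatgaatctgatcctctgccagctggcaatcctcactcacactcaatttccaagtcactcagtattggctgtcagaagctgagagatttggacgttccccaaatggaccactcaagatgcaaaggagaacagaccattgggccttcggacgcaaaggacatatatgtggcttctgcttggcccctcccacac
Cd209d, chr8:3878500-3878749, minus strand: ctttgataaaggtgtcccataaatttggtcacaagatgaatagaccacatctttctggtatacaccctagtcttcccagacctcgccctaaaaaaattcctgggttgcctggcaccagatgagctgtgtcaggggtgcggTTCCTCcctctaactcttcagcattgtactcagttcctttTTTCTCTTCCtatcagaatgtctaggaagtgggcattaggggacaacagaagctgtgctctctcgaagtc
GAGGAA or its reverse complement starts at position −118 in Cd207, −225 in Mgl2 and −110 in Cd209d, counted from the start of transcription. It was found in 3 of the 8 genes and in 23.3% of all 32851 promoter windows of that length. The composite motif was found in 1 of the 8, Cd209d, at position −70, and in 2.3% of all windows. The AP-1 motif lay at position −7 in Cd207 and was also found in Zbtb46, so in 2 of the 8 genes, against 6.75% of all windows. The interferon motif was found in 0 of the 8 and in 2.98% of all windows. No matches overlapped in the windows shown, apart from the AP-1 motif, which reads the same on both strands. A match is a match of letters and was not tested for binding.

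The Langerhans cell genes had their lowest values on day 10 and their highest on day 14. Cd207 encodes langerin, the lectin that forms Birbeck granules, and is also made by some dermal dendritic cells. On days 10, 12 and 14 it stood at 6.11, 6.56 and 6.78, below the median probe set of each array (7.53, 7.55 and 7.53). The value was lowest on day 10 and highest on day 14, 1.59-fold apart, and 67.1% of the log2 difference was present by day 12. The second step, 0.22, lay inside the 0.29 by which probe sets of a gene differed. Whether so low a value lies above background is unknown, since no detection calls were used.

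Epcam encodes an adhesion molecule that Langerhans cells carry, and that epithelial cells of the hair follicle and sebaceous gland also make. Its levels were 8.27, 9.49 and 9.82 in order of days, the highest difference of the 10 genes. Day 12 was 2.34-fold and day 14 2.94-fold above day 10, and 78.8% of the log2 difference was present by day 12. Only 0.431% of all named genes had a difference between day 14 and day 10 at least as high.

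Epithelial genes moved on the same arrays as Epcam. In a list of 10 genes of follicle and sebaceous gland, 7 were higher on day 14 than on day 10 and 3 were lower. The shares of all named genes were 34.9% and 35.6%. The list had a median difference of 1.14 and a median level of 10.2 on each day. Among the 7 of these genes whose mean lay in the top 25% of all genes, the median difference was 0.15. Krt15, a keratin gene of follicle stem cells and basal cells, was higher by 1.94, and Krt79, a keratin gene of the follicle's upper part and sebaceous duct, by 1.92. Far2 and Elovl3, which make sebaceous lipids, were higher by 1.77 and 1.76. On day 14 against day 12, 5 genes of the list were higher and 5 lower, with a median of 0.01. At that step Krt15 and Krt79 differed by 0.66 and 0.09, Far2 and Elovl3 by −0.33 and −0.57, and Epcam by 0.33. Of all named genes, 32.7% were higher and 30.8% lower. The 3 lower genes on day 14 against day 10 were Sox9, Mgst1 and Krt17, at −0.60, −0.57 and −0.02. The 8 epidermal genes had a median difference of 0.21, from −0.13 to 0.49, and levels with a median of 13.0 on day 10 and 13.2 on day 14. The part of epithelial cells in the Epcam value was not tested. Without Epcam, the remaining 9 genes were all higher on day 14 and had a median difference of 0.46.

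**Figure D1:**
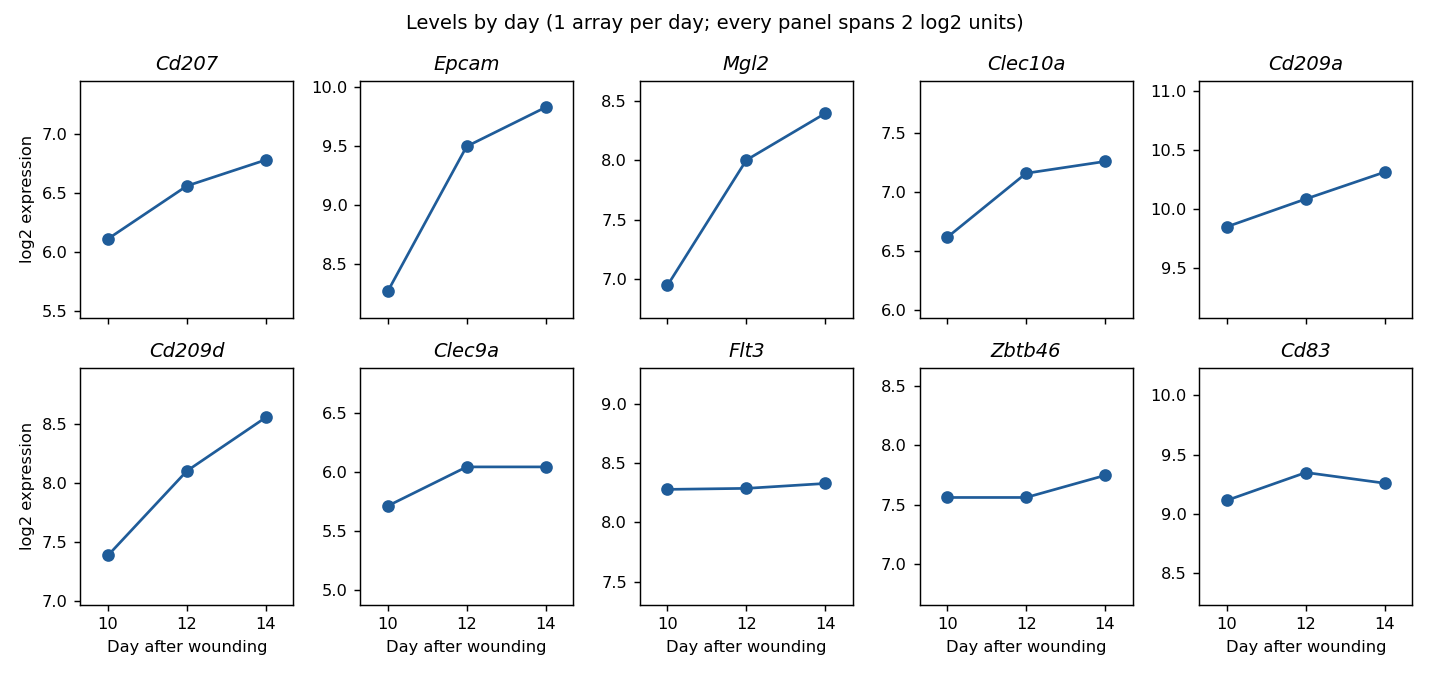
Log2 expression (vertical axes, each spanning 2 units) of the 10 genes by day after wounding (horizontal axes), with 1 point per array of 3 pooled mice. Epcam, Mgl2 and Cd209d climb most, to 9.82, 8.40 and 8.56 on day 14, while Flt3 stays between 8.28 and 8.33.

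The lectin genes differed in size and in timing. Mgl2 encodes CD301b, a lectin for galactose-type sugars that marks a dermal dendritic cell type and is also found on some macrophages. Its levels were 6.94, 8.003 and 8.40 on days 10, 12 and 14. The day 12 level was 2.08-fold and the day 14 level 2.74-fold above day 10, and day 12 held 72.9% of the log2 difference. On day 10 it lay below the array's median probe set, and on both later days above it.

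Clec10a encodes CD301a, the close paralog next to Mgl2 on chromosome 11, found on macrophages and dendritic cells. It stood at 6.62, then 7.16, then 7.26. The order of the days was that of Mgl2, but the difference between day 14 and day 10 was 0.64 beside 1.45, and 84.4% of it was present by day 12. The coding sequences of both genes are alike, the probe sequences were not used here, and signal shared between their probe sets was not tested.

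Cd209a encodes the mouse relative of human DC-SIGN, a mannose-type lectin of dermal and monocyte-derived dendritic cells. It read 9.85, 10.1 and 10.3 on days 10, 12 and 14. The steps were of nearly equal size, 0.23 and 0.23, and their sum of 0.46 lay inside the 0.48 by which probe sets of a gene differed. Cd209d encodes SIGNR3, a related receptor for microbial sugars. It read 7.39, 8.10 and 8.56, or 2.24-fold higher on day 14 than on day 10. Its second step, 0.45, was the highest of the 10 genes on day 14 against day 12.

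The other Cd209 genes, which lie with these on chromosome 8 or are named as their relatives, did not share one pattern. Cd209e was 6.56, 7.21 and 7.47 on days 10, 12 and 14, a difference of 0.91 over the whole interval. Cd209c differed by 0.25 and Cd209f by −0.05, and Cd209b and Cd209g held the same value on all arrays, 6.02 and 6.12. Values of a gene that are equal to the last digit were common in this table (29.5% of named genes on day 14 against day 10) and are no precise measure of no difference. Among members of so similar a family, signal shared between probe sets was not tested.

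**Figure D2:**
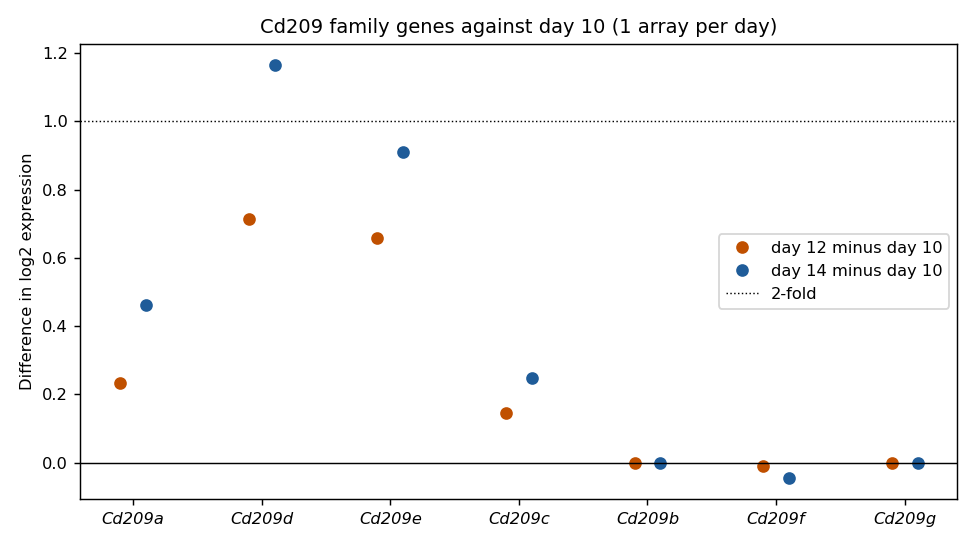
Difference in log2 expression from day 10 (vertical axis) for 7 Cd209 family genes, on day 12 (orange) and day 14 (blue), 1 array per day. Cd209d and Cd209e reach 1.17 and 0.91 on day 14, Cd209a 0.46 and Cd209c 0.25, and the remaining genes stay within 0.05 of 0.

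Clec9a encodes DNGR-1, a receptor for exposed actin of dead cells on cross-presenting dendritic cells. The day 10 value, 5.71, was under the lower quartile of its array, and the gene was at 6.04 on both day 12 and day 14. The difference of 0.33 is smaller than the gap between probe sets, and at this signal nothing about the level can be told from background.

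The lineage genes were nearly level. Flt3 encodes the receptor for Flt3 ligand that dendritic cell precursors need, and stood at 8.28, 8.29 and 8.33 on days 10, 12 and 14. Zbtb46 encodes a transcription factor of conventional dendritic cells that endothelial cells also express, and stood at 7.56, 7.56 and 7.75. For both genes the sign of day 12 against day 10 changed with the scaling of the arrays, between −0.01 and 0.02 for Flt3 and between −0.02 and 0.00 for Zbtb46. Against day 10, all 8 genes of an endothelial list were lower on day 14 (median −0.56), beside 35.6% of all named genes. Pecam1 in that list, which encodes CD31, differed by −0.26, at 11.2 on day 10 and 10.9 on day 14. The part of endothelial RNA in the Zbtb46 value was not tested.

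Cd83 encodes a surface protein of mature dendritic cells that activated B cells and other leukocytes also carry. Its levels were 9.11, 9.35 and 9.26. It was the only one of the 10 genes whose day 12 value lay above both others, and both steps, 0.24 and −0.09, were smaller than the gap between probe sets. The 5 measured B cell genes had median levels of 6.36 on each day and differed by at most 0.11 between day 14 and day 10.

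**Figure D3:**
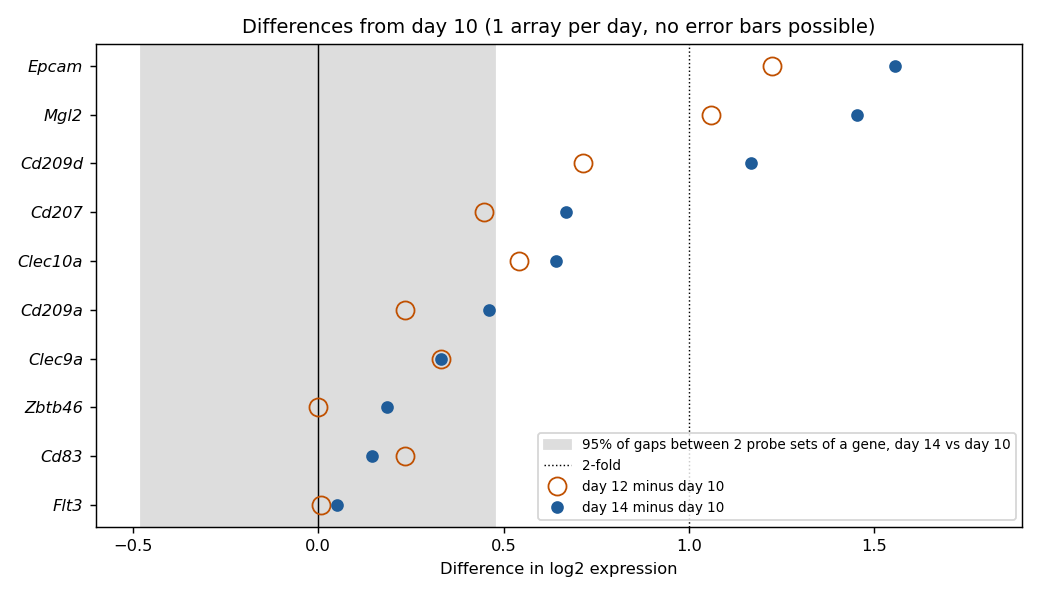
Difference in log2 expression from day 10 (horizontal axis) for each gene (rows), on day 12 (open orange) and day 14 (filled blue). The grey band is the 0.48 that 95% of gaps between probe sets stayed under on day 14 against day 10, and the dotted line is 2-fold. On day 14, Epcam, Mgl2, Cd209d, Cd207 and Clec10a lie outside the band.

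By comparison, the first step was larger than the second. On day 12 against day 10, 9 of the 10 genes were higher and 1 was equal, against 25.5% of all named genes higher. Equal values were common at this step, and 65.5% of all named genes were higher or equal. The median was 0.39, and 2 genes, Epcam and Mgl2, were at least 2-fold higher, against 0.787% of all named genes. On day 14 against day 12, 8 genes were higher, Cd83 was lower and Clec9a was equal, with a median of 0.20. Of all named genes, 32.7% were higher and 30.8% lower at that step. None of the 10 was at least 2-fold higher at that step, against 0.0552% of all named genes. On day 14 against day 10, 3 genes, Epcam, Mgl2 and Cd209d, were at least 2-fold higher, against 1.25%. Values stood in the order of the days for 7 genes, Cd207, Epcam, Mgl2, Clec10a, Cd209a, Cd209d and Flt3, against 12.6% of all named genes. The first step of Flt3, 0.01, has no settled sign, and under array centring and quantile normalization Clec9a took its place among the 7. These comparisons share arrays and are not independent of each other.

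Other genes of dendritic cells were read from 6 lists, which give 97 measured genes once each gene is counted once. On day 14 against day 10, 56 of the 97 were higher and 27 lower, against 34.9% and 35.6% of all named genes. Their median was 0.04, beside 0.55 for the 10 genes. At 2-fold, 3 of the 97 were higher and 1 was lower, against 1.25% and 0.512% of all named genes. The lists moved differently from one another. The same shares of all named genes, 34.9% higher and 35.6% lower, stand beside each list's counts on day 14 against day 10 below.

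In the list of 22 genes of dendritic cell subsets, 16 were higher and 4 lower on day 14 against day 10. Of all named genes, 34.9% were higher and 35.6% lower. The list's median was 0.28. The 4 lower genes were Ly75, Tlr3, Cd24a and Id2, at −0.32, −0.15, −0.09 and −0.03. Itgax, which encodes CD11c, was at 9.44, 10.5 and 10.8 on days 10, 12 and 14, a difference of 1.37. Ahr, an aryl hydrocarbon receptor gene that Langerhans cells and keratinocytes express, was higher by 1.36. Dpp4, which encodes the peptidase CD26, was higher by 1.17, and Naaa, a lipid amidase gene of cross-presenting dendritic cells, by 0.70. Most of these differences were present by day 12, when 19 of the 22 were higher than on day 10, against 25.5% of all named genes. Day 14 against day 12 had 11 higher and 10 lower, against 32.7% and 30.8% of all named genes.

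Of 9 measured genes of MHC class II presentation, 8 were higher and 1 was equal on day 14 against day 10, and the median was 0.34. H2-Ab1, a class II beta chain gene, was at 11.7, 12.5 and 12.5 on the 3 days. Ciita, the master regulator of class II genes, was higher by 0.55, and H2-Eb2 and H2-Ob, a beta chain gene and a modulator of peptide loading, by 0.41 and 0.40. Between day 12 and day 14 the list had a median of 0.00 and a range from −0.09 to 0.05.

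The 16 maturation genes were split on day 14 against day 10, with 7 higher, 6 lower and a median of 0.00. The chemokine genes Ccl17 and Ccl22, ligands of Ccr4 made by mature dendritic cells, stood highest on day 12, at 9.02 and 8.83, beside 7.76 and 7.93 on day 10 and 8.60 and 8.73 on day 14. Marcksl1, which encodes a protein of the actin cytoskeleton, differed by −1.17 over the whole interval, at 10.1 on day 10 and 8.89 on day 14. Fscn1, which encodes the actin bundler fascin and is also made by other cells, was 12.3 on day 10 and 11.9 on day 14. Between day 12 and day 14, 12 of the 16 were lower, against 30.8% of all named genes.

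Of 23 genes of growth and attraction, 14 were higher and 6 lower on day 14 against day 10, and the median was 0.02. Ccl20, which attracts Langerhans cell precursors through Ccr6, was at 6.82, 7.22 and 7.57. Ccr6 was low, at 6.30, 6.39 and 6.39 on days 10, 12 and 14. Il34 differed by 0.02 over the whole interval, and Csf1r was at 11.2, 11.5 and 11.4 on the 3 days. Bmp7, a growth factor gene of the epidermis, was higher by 0.39. Ccl2, a monocyte attractant gene, stood at 10.2, 10.4 and 9.64, and Il4ra, the interleukin 4 receptor gene, at 11.7, 11.4 and 11.2. The plasmacytoid list had 9 measured genes and a median of 0.09. In it, Ccr9 was higher by 0.47 and Cox6a2 by 0.11, and Ptprs differed by −0.15. Irf7 stood highest on day 12, at 9.72, 10.4 and 9.83 on days 10, 12 and 14, a difference of 0.11 over the whole interval. The 18 other lectin genes had 5 higher and 9 lower on day 14 than on day 10 and a median of 0.00. Among them, Cd209e and Clec7a, the gene of the beta-glucan receptor dectin 1, differed by 0.91 and 0.51, and Clec4n and Clec4d, receptor genes of macrophages and neutrophils, by −0.71 and −0.62.

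**Figure D4:**
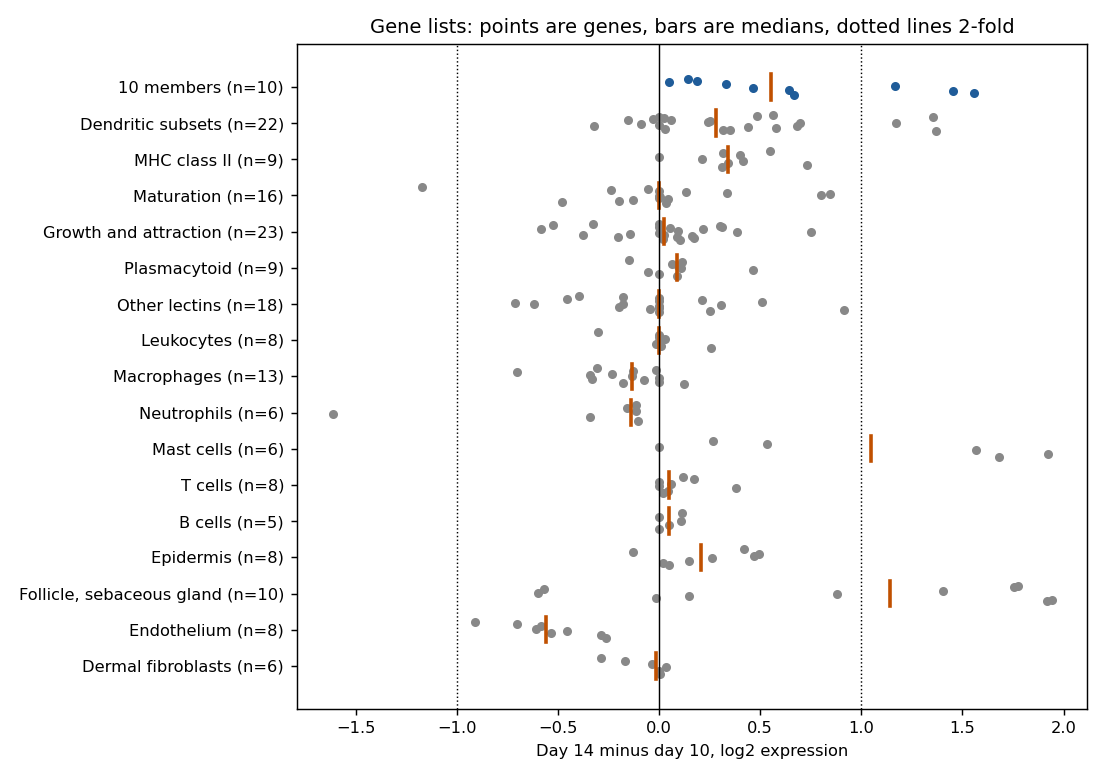
Difference in log2 expression between day 14 and day 10 (horizontal axis) for each measured gene (points) of the 10 genes (blue) and of 16 other lists (grey, rows, with n), with list medians as orange bars and 2-fold as dotted lines. The 10 genes have a median of 0.55, macrophage genes −0.13, mast cell genes 1.05 and endothelial genes −0.56.

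Markers of other cell types are given beside these values. The lectin genes Mgl2, Clec10a and Cd209a are also made by macrophages. In the macrophage list, 1 of 13 genes was higher and 10 lower on day 14 than on day 10, against 34.9% and 35.6% of all named genes, with a median of −0.13 and median levels of 10.6, 10.9 and 10.5 on days 10, 12 and 14. Cd14, C1qb, Fcgr1 and Cx3cr1 differed by −0.70, −0.34, −0.33 and −0.31, and Cd163 stood at 6.09 on each array. Adgre1, the 1 that was higher, differed by 0.12. In the list of other lectin genes, Mrc1 and Clec7a differed by 0.21 and 0.51, and Clec4n and Clec4d by −0.71 and −0.62. The 8 general leukocyte genes had a median of 0.00 on day 14 against day 10, with 3 higher and 3 lower. Ptprc, which encodes CD45, was at 10.3, 10.9 and 10.6, a difference of 0.26. Cd53 and Laptm5 in that list differed by 0.03 and −0.02, and Rac2 by −0.30.

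On day 12 against day 10, 6 of the 8 leukocyte genes were also higher, with a median of 0.07. So were 11 of the 13 macrophage genes, with a median of 0.07, against 25.5% of all named genes. On day 14 against day 12, 7 of the 8 leukocyte genes and 12 of the 13 macrophage genes were lower, with medians of −0.11 and −0.23. At that step 8 of the 10 dendritic and Langerhans cell genes were higher, with a median of 0.20. Of the 97 other dendritic cell genes, however, 31 were higher and 50 lower, with a median of −0.01. In the mast cell list 5 of 6 were higher, with a median of 0.39. Of all named genes, 32.7% were higher and 30.8% lower at that step. Against day 10, all 6 neutrophil genes were lower on day 14 (median −0.14), beside 35.6% of all named genes. Mmp8 in that list was at 7.96, 8.77 and 6.35. For the 8 T cell genes the median was 0.05, with 6 higher and 0 lower, against 34.9% and 35.6% of all named genes. In the mast cell list Mcpt4, Cpa3 and Tpsb2, which encode granule proteases, were higher by 1.92, 1.68 and 1.57, and Fcer1a by 0.53. Of the 6 mast cell genes, 5 were higher and 1 was equal, against 34.9% and 29.5% of all named genes. The 6 genes of dermal fibroblasts had a median of −0.02. The part of these cell types in the values of the 10 genes was not tested.

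Many other genes followed the days as Cd207 and Mgl2 did. Likeness was the Euclidean distance between the pairs of steps, over 3 arrays and 9790 candidate genes. Candidates had a highest value at or above 8.36, which Cd207 itself did not reach. The 10 genes and predicted genes were left out, so the counts below cover only part of all named genes. The nearest to Cd207 were Col17a1, Plpp2, Ikzf2, Mid2 and Sh3gl2, at distances of 0.01 to 0.02, and 84 genes lay within 0.1. Col17a1, a hemidesmosomal collagen gene of basal keratinocytes, was 10.7, 11.1 and 11.3 on days 10, 12 and 14. The nearest to Mgl2 were Exph5, Igfbp2, Sdr42e1, Acer1 and Mab21l4, at 0.02 to 0.05, and 14 genes lay within 0.1. With 3 arrays, such likeness places genes by their pair of steps only.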

How the data were processed

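Wound RNA (250 ng total RNA per array, per the labels' protocols) was measured on 3 arrays, grouped by the time in the labels. The deposited table holds log2 values by the authors, from 4.37 to 14.1. The submitters' processing notes list RMA and Partek 6.6 with no roles, and the log2 scale was taken from the range. Of 35556 probe sets, 21789 had 1 gene symbol in the platform's annotation, 1621 had several and 12146 were not listed. Values of single-symbol probe sets were averaged per symbol. No level filter was applied to the counts and differences, since 5 of the 10 genes had no value at or above 8.36. That cut is the median over genes of the highest value, and Mgl2 and Cd209d passed it by day 14 alone. Candidates for likeness to Cd207 and Mgl2 were limited to genes that passed it. Days were compared by log2 difference, with no test, and 2-fold as the size counted. The 10 genes and all lists were chosen with earlier results of these data known. Genes named were all 10, the 4 of each other list with the largest difference in size between day 14 and day 10 (for other cell types only some of these are printed), Itgax, Ptprc, Krt14, Col1a1, Pecam1 and the 5 nearest to Cd207 and to Mgl2. The other Cd209 genes, Cd163 and Eif2s3y were named after their values were seen. So were Ly75, Tlr3, Cd24a, Id2, Adgre1, Mrc1, Ccr6, Il34, Csf1r, Sox9, Mgst1 and Krt17. Alternatives were 2 level filters, array centring, quantile normalization, cyclic loess (limma 3.58.1), the brightest probe set and 1.5-fold. The counting was tested on simulated data. Python 3.11.15 was used.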

Additional observations from a re-analysis of the deposited data

How the results depend on the processing

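With arrays centred on their medians, quantile normalization, cyclic loess and the brightest probe set per gene, the median difference of the 10 genes ranged from 0.37 to 0.39 on day 12 against day 10, from 0.18 to 0.23 on day 14 against day 12 and from 0.55 to 0.56 on day 14 against day 10, and all 10 were higher in the last comparison under each of them. The count higher ranged from 8 to 10 on day 12 against day 10 and from 8 to 9 on day 14 against day 12, and 7 or 8 were higher at each step, with Clec9a in place of Flt3 under centring and quantile normalization. Under the 3 scalings, single values of the 10 genes moved by less than the gap between probe sets in all 90 recomputations. The brightest probe set cannot change them, since each gene has 1. Restricting to genes above the level filter leaves 5 of the 10 genes, of which 5, 4 and 5 were higher in these comparisons and 4 at each step, with a median of 1.17 on day 14 against day 10, which is the value of Cd209d. Mgl2 and Cd209d pass by their day 14 values alone, so the difference itself decides who stays, and these counts are no support. Restricting to genes whose mean lies in the top 25% leaves 1, Cd209a, which was higher at each step, so that 1 gene was higher in each comparison and 0 were past 2-fold. At 1.5-fold, 5 genes were past the size on day 14 against day 10. Without Epcam, and without Epcam and Cd207, both chosen after seeing the data, 1 gene was at least 2-fold higher on day 12 against day 10 in each case. Of the list medians, 8 of 279 recomputations moved by more than the gap between probe sets, all of them under a level filter. With the top 25%, the follicle and sebaceous medians against day 10 were 0.12 (day 12) and 0.15 (day 14), and the mast cell median on day 14 against day 10 was 1.62 above the level filter. No paired analysis was possible because each day has 1 array. Signal over background is unknown, which limits Cd207 and Clec9a most.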
